A study of Mus musculus with 6 samples.

Results

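The delta protocadherins are a group of non-clustered protocadherins, cell surface proteins of the cadherin superfamily. Their members in mouse were taken as Pcdh1, Pcdh7, Pcdh8, Pcdh9, Pcdh10, Pcdh11x, Pcdh17, Pcdh18, Pcdh19 and Pcdh20, and every probe set that the platform annotation assigns to 1 of these genes alone was used. This gave 10 of the 18193 genes on the array, measured by 27 of the 34945 probe sets that map to a single gene. Where 1 value per gene is given, it is that of the leading probe set, the brightest of the gene on average across the 6 arrays. The genes were chosen by family membership, with earlier results of these data known.

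The arrays hold RNA of sorted retinal cells from C57BL/6 mice at postnatal day 6, with 2 arrays in each of 3 groups and the replicates of a group drawn from different litters. The Hb9 group is cells positive for GFP and Thy1 labelled as Hb9 retinal ganglion cells, and the Drd4 group is cells positive for GFP and Thy1 labelled as Drd4 retinal ganglion cells. The Thy1 group is cells sorted for Thy1 alone. All 3 groups share papain dissociation, flow sorting and 2 rounds of RNA amplification. The sources used here do not give the regulatory sequence that drives GFP in either line or the number of mice behind each sort. The comparisons ask how 2 ganglion cell subtypes differ from each other and from the broader sort.

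Retinal ganglion cells are the output neurons of the eye. The Hb9 and Drd4 lines are known for labelling direction-selective ganglion cells that prefer different directions of motion. Delta protocadherins bind the same protein on a neighbouring cell through their extracellular cadherin repeats. They are divided by their cytoplasmic motifs into a delta-1 subgroup (Pcdh1, Pcdh7, Pcdh9 and Pcdh11x) and a delta-2 subgroup (Pcdh8, Pcdh10, Pcdh17, Pcdh18 and Pcdh19), and Pcdh20 stands outside both. Several delta-2 proteins recruit the WAVE complex, which drives branched actin assembly. In neurons the family is known for roles in axon growth, in the sorting of axons and in synapse formation.

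Levels are deposited intensities on the log2 scale, and a difference of 1 on that scale is a 2-fold difference in intensity. The brightest Bacillus subtilis control, a bacterial transcript, served as a background reference and read 4.95 to 5.38 on the 6 arrays. Of the 27 probe sets, 17 exceeded the reference on every array and 4 were below it on every array. Of 9 measured ganglion cell markers, 8 were above the reference on all arrays. Against the Thy1 group, 1 of the 9 was higher in Hb9 (Nefm). In Drd4, 3 were higher (Nefm, Thy1 and Pou4f3) and 1 was lower (Isl1, 3.34-fold). Replicate arrays correlated at 0.988 to 0.992 over all genes, and arrays of different groups at 0.963 to 0.981. The Thy1 sort read higher for markers of some other cell types. Of 11 microglial markers, 10 were lower in Hb9 and 10 in Drd4, and their summed intensity was 1622 to 2018 in Hb9, 2944 and 1043 in Drd4 replicates 1 and 2, and 6544 to 11349 in Thy1. Of 8 pericyte and vessel wall markers, 6 were lower in Hb9 and 7 in Drd4, with sums of 1615 to 2007, of 1209 and 319, and of 8444 to 9703. None of these markers was below the reference on all arrays, and their part in the differences from Thy1 was not tested. Fewer cells of a type and less RNA per cell cannot be told apart in such samples. Of 10 immediate-early genes, 4 were lower in either line, with sums of 1602 to 1789 in Hb9, 1287 to 1498 in Drd4 and 2303 to 3455 in Thy1. Genes of dividing cells were lower in 4 of 6 in Hb9 and in 5 of 6 in Drd4. None of the 6 exceeded the reference on all arrays and 1 (Aurkb) was below it on all, which limits these differences. Their sums in Thy1 were 335 and 559. Of 8 Muller glia markers, 2 (Vim and Apoe) were lower in either line, and 2 others were below the reference on all arrays. Of 5 horizontal cell markers, 1 was lower in Hb9 (Septin4) and 2 in Drd4 (Septin4 and Onecut1). Another 2 were below the reference on all arrays. None of 4 bipolar and 6 photoreceptor markers passed against Thy1. Of 8 endothelial markers, 1 (Flt1) was lower in either line and 4 were below the reference on all arrays. Of 8 amacrine markers, 1 (Pax6) was higher in either line. Median differences from Thy1 in Hb9 and Drd4 were -0.05 and -0.14 for the endothelial list and -0.03 and -0.08 for the amacrine list. They were -0.29 and -0.18 for the Muller list and -0.23 and -0.42 for the horizontal list. Hb9 replicate 2 stood apart. The Y-linked transcripts Eif2s3y and Kdm5d, chosen after their values were seen, read 3.42 and 3.58 there, below the reference, and exceeded it on the other 5 arrays. The X-linked transcript Xist read 10.34 to 11.18 on the 6 arrays, with 10.77 in Hb9 replicate 2. The labels do not give the sex of the mice. Hb9 differences that passed are given below with and without Hb9 replicate 2. Where they concern other probe sets or genes outside the family, that fit was added after the values were seen.

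Of the 10 genes, 5 passed in Drd4 against Thy1, 3 in Hb9 against Thy1 and 2 in Hb9 against Drd4. In Drd4 against Thy1, Pcdh10 and Pcdh17 were higher and Pcdh11x, Pcdh19 and Pcdh20 were lower by limma at an adjusted p under 0.05. Among all 18193 genes, 1.51% were higher and 3.96% were lower in that comparison. In Hb9 against Thy1, Pcdh8 and Pcdh10 were higher and Pcdh20 was lower, where 3.52% of all genes were higher and 3.19% were lower. In Hb9 against Drd4, Pcdh11x and Pcdh19 were higher in Hb9 and the other 8 genes did not pass, where 4.06% of all genes were higher and 2.06% were lower. The same Thy1 arrays serve in both comparisons with Thy1, so those calls are not independent of each other.

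The family did not shift one way. The median difference over the 10 genes was -0.05 in Hb9 against Thy1, -0.07 in Drd4 against Thy1 and 0.02 in Hb9 against Drd4, beside 0.04, 0.02 and 0.04 over all genes. The median size of the difference was 0.43, 0.78 and 0.55, beside 0.18, 0.13 and 0.16 over all genes. These medians were not matched for brightness. Apart from Pcdh1 and Pcdh20, the members were brighter than 80.9% (Pcdh7) to 96.2% (Pcdh11x) of all genes. Both arrays of one group lay beyond both arrays of the other for 6, 8 and 8 of the 10 genes. The same held for 54.2%, 41.1% and 49.7% of all genes. With 2 arrays a group, the smallest p of an exact permutation test is 0.333. The tests are therefore those of limma, which moderates the spread across genes.

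**Figure D1:**
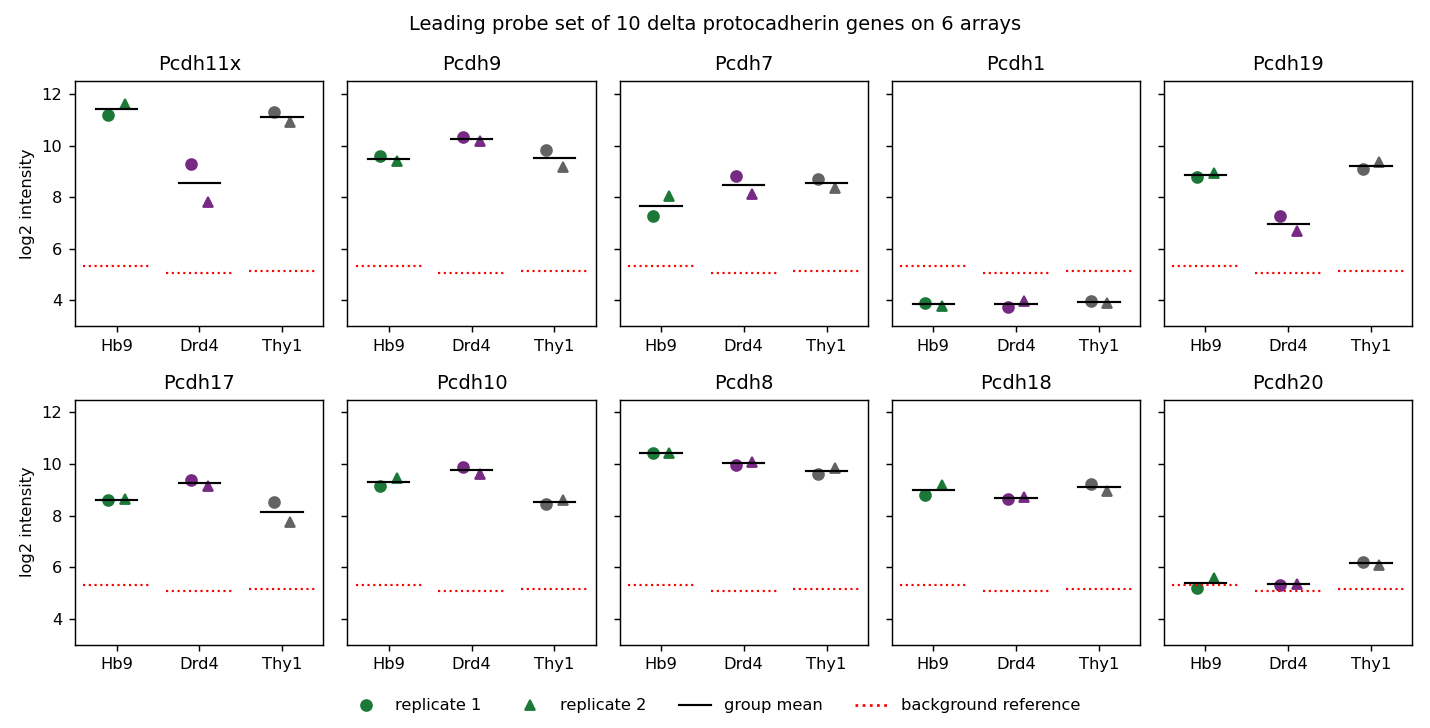
The log2 intensity (y axis) of the leading probe set of each gene is shown for Hb9, Drd4 and Thy1, with a circle for replicate 1, a triangle for replicate 2, a bar for the group mean and a dotted red line for the mean background reference of the group. Pcdh11x and Pcdh19 are lowest in Drd4, Pcdh10 and Pcdh17 are highest there, and Pcdh1 lies below the reference in all groups.

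Pcdh11x, the delta-1 gene on the X chromosome, showed the widest range of the family. Its leading probe set (1436449_at) read 11.20 and 11.60 in Hb9, 9.29 and 7.81 in Drd4, and 11.32 and 10.92 in Thy1. Both Drd4 arrays lay below all 4 others, and the Hb9 and Thy1 arrays overlapped. The difference was -2.57 ± 0.37 (SE) in Drd4 against Thy1, a 5.93-fold lower intensity (limma adjusted p = 0.00247), and 2.85 ± 0.37 in Hb9 against Drd4, 7.21-fold (adjusted p = 0.00159). Hb9 and Thy1 differed by 0.28 ± 0.37 (adjusted p = 0.721).

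The other Pcdh11x probe set (1438889_at) gave the same order at a lower intensity. It read 8.58 and 9.24 in Hb9, 6.49 and 5.48 in Drd4, and 8.81 and 8.21 in Thy1. Drd4 replicate 2 lay near its reference of 5.20 there. The difference was -2.52 ± 0.33 in Drd4 against Thy1 and 2.93 ± 0.33 in Hb9 against Drd4, with adjusted p of 0.00156 and 0.000553 over all probe sets. The Drd4 arrays were spread in both probe sets, with replicate 1 above replicate 2 by 1.48 and 1.01. The microglial and pericyte sums were also higher in Drd4 replicate 1, and their part in this gap was not tested. The call against Thy1 was lost with robust moderation of the spread (adjusted p = 0.0662), and the difference was -3.31 without Drd4 replicate 1 and -1.83 without Drd4 replicate 2. Without Hb9 replicate 2 the difference between the lines was 2.65 (adjusted p = 0.0112) in the leading probe set and 2.60 (adjusted p = 0.00543) in the other. The leading one ran from 2.11 to 3.59 over all alternatives.

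Pcdh9, the delta-1 gene that lies next to Pcdh20 among protein-coding genes, was higher in Drd4 in 1 of its 3 probe sets. The leading one (1429861_at) read 9.58 and 9.41 in Hb9, 10.32 and 10.16 in Drd4, and 9.84 and 9.16 in Thy1. Drd4 lay above the others on both arrays, yet the differences of 0.74 ± 0.21 from Thy1 and of -0.74 ± 0.21 for Hb9 against Drd4 missed the threshold (limma adjusted p = 0.0801 and 0.0676). The probe set 1442659_at read 8.29 and 8.10 in Hb9, 9.28 and 9.58 in Drd4, and 8.68 and 8.49 in Thy1. There Drd4 exceeded Thy1 1.80-fold (adjusted p = 0.0162), and Hb9 lay 2.36-fold below Drd4 (adjusted p = 0.0015). The third probe set passed in no comparison. Without Hb9 replicate 2, Hb9 lay 2.21-fold below Drd4 there (adjusted p = 0.0193). For the leading probe set, Hb9 against Drd4 passed under 4 alternatives, with adjusted p of 0.0130 to 0.0405, and the mean of the 3 probe sets passed as well (-0.75, adjusted p = 0.0188). Drd4 against Thy1 ranged from 0.39 to 1.08 as arrays were left out, and it passed at 1.08 without Thy1 replicate 1 (adjusted p = 0.00798).

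Pcdh7, the delta-1 gene whose protein binds the phosphatase PP1, did not pass in any of the 3 comparisons. It read 7.25 and 8.06 in Hb9, 8.80 and 8.13 in Drd4, and 8.70 and 8.36 in Thy1 with 1456214_at. The Hb9 arrays were the lowest of the 6 and differed from Thy1 by -0.87 ± 0.29 (limma adjusted p = 0.0992). That difference was -0.47 without Hb9 replicate 1 and -1.28 without Hb9 replicate 2. It passed under 3 alternatives (adjusted p = 0.0432 to 0.0435), and Hb9 against Drd4 passed without Drd4 replicate 2 (-1.15, adjusted p = 0.0425). The other Pcdh7 probe sets, 1427592_at and 1449249_at, averaged below the reference in every group and passed in no comparison. Their differences between Hb9 and Thy1 were -0.10 and -0.01. Pcdh1, the delta-1 gene best known from epithelia, read 3.72 to 3.99 on the 6 arrays, below the reference on each of them, so no fold is given.

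The 5 delta-2 genes differed in direction. Hb9 had 2 higher than Thy1 (Pcdh8 and Pcdh10), and Drd4 had 2 higher (Pcdh10 and Pcdh17) and 1 lower (Pcdh19). Among all genes, 3.52% were higher in Hb9, and 1.51% were higher and 3.96% lower in Drd4. The sequences upstream of the starts of the 5 delta-2 genes are shown because 4 of the 5 share a sequence word. That word was found without use of the expression values. Each is the 150 bases before the annotated start in RefSeq on GRCm38.p6, written 5′ to 3′ on the gene's strand. They lie at chrX:133688994-133689143 (minus strand) for Pcdh19, chr14:84443413-84443562 (plus) for Pcdh17, chr3:45378248-45378397 (plus) for Pcdh10, chr3:49757317-49757466 (minus) for Pcdh18 and chr14:79771313-79771462 (minus) for Pcdh8.
Pcdh19: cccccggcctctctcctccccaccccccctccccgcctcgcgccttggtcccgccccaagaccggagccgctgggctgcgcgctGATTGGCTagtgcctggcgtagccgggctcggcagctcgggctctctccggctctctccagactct
Pcdh17: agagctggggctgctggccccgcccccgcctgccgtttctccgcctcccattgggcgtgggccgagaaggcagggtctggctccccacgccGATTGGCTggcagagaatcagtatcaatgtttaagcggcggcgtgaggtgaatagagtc
Pcdh10: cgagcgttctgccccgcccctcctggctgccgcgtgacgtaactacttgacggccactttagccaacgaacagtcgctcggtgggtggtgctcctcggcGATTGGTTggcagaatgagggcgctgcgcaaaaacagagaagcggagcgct
Pcdh18: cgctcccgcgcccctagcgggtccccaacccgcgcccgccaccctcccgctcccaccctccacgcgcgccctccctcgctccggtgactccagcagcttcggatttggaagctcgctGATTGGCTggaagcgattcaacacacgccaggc
Pcdh8: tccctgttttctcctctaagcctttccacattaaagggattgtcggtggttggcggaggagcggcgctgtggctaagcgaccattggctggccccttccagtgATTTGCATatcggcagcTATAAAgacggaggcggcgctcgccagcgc
Capitals in the first 4 mark GATTGGNT, the inverted CCAAT box with its flanking letters, and in Pcdh8 they mark the POU octamer ATTTGCAT and the TATA word TATAAA.

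These words were chosen after the sequences had been read, so their counts are descriptions. GATTGGNT, searched on both strands, was in 4 of the 8 family members searched and in 5.21% of 27025 promoters over the same 150 bases. Pcdh1 and Pcdh11x were not among the 8. Its core ATTGG, which it contains, was in 6 of the 8 and in 25.27% of promoters. The octamer was in 1.02% and TATAAA in 8.08% of promoters, and of the 8 members Pcdh8 was the 1 with either. Pcdh18, which passed in no comparison, carried the same word as Pcdh19, which was lower in Drd4, and as Pcdh10 and Pcdh17, which were higher there.

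Pcdh19, the X-linked delta-2 gene known from an epilepsy of females, was lower in Drd4 than in both other groups. The leading probe set (1455145_at) read 8.78 and 8.93 in Hb9, 7.27 and 6.67 in Drd4, and 9.09 and 9.36 in Thy1, so no groups overlapped. The difference was -2.26 ± 0.21 in Drd4 against Thy1, a 4.78-fold lower intensity (limma adjusted p = 0.000183). Hb9 exceeded Drd4 by 1.89 ± 0.21, or 3.70-fold (adjusted p = 0.000589), and by 1.81 without Hb9 replicate 2 (adjusted p = 0.00538). The difference of -0.37 ± 0.21 between Hb9 and Thy1 did not pass (adjusted p = 0.331).

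The 3 Pcdh19 probe sets differed in how they placed Hb9. In 1437360_at the values were 8.56 and 8.22 in Hb9, 6.60 and 6.42 in Drd4, and 9.27 and 9.69 in Thy1. Drd4 was 7.83-fold below Thy1, Hb9 was 2.12-fold below Thy1, and Hb9 was 3.69-fold above Drd4, and all 3 differences passed (adjusted p = 2.71e-05, 0.00922 and 0.000297 over all probe sets). The dimmer 1444422_at read 5.40 and 5.53 in Hb9, 5.41 and 5.35 in Drd4, and 6.41 and 6.53 in Thy1. Here Hb9 and Drd4 were near the reference and differed by 0.09 ± 0.14 (adjusted p = 0.812), while both lay below Thy1 (adjusted p = 0.00318 and 0.00167). Without Hb9 replicate 2, Hb9 against Thy1 was -0.92 in 1437360_at, which did not pass (adjusted p = 0.0795), and -1.07 in 1444422_at, which did (adjusted p = 0.0195). Hb9 against Drd4 was then 2.05 in 1437360_at (adjusted p = 0.00149). With the mean of all probe sets, the difference between Hb9 and Thy1 was -0.82 (adjusted p = 0.0177), and its excess over Drd4 was 1.29.

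Pcdh17, a delta-2 gene known for axon extension and for synapses of the basal ganglia, was higher in Drd4 than in Thy1. Its leading probe set (1453070_at) read 8.60 and 8.64 in Hb9, 9.37 and 9.15 in Drd4, and 8.51 and 7.73 in Thy1. The 2 Drd4 arrays were the highest of the 6. Drd4 exceeded Thy1 by 1.14 ± 0.23, 2.21-fold (limma adjusted p = 0.0151), but it missed the threshold when Drd4 replicate 1 was left out (adjusted p = 0.0562). Leaving out Thy1 replicate 2 reduced the difference to 0.75 (adjusted p = 0.0562). The values of 0.49 ± 0.23 for Hb9 against Thy1 and -0.65 ± 0.23 for Hb9 against Drd4 did not pass (adjusted p = 0.231 and 0.142). The former passed at 0.88 without Thy1 replicate 1 (adjusted p = 0.0481) and was 0.11 without Thy1 replicate 2. The latter passed under 4 alternatives (adjusted p = 0.0327 to 0.0417).

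The other Pcdh17 probe set (1436920_at) was steadier between replicates. It read 7.99 and 7.79 in Hb9, 8.69 and 8.72 in Drd4, and 7.56 and 7.33 in Thy1, with no overlap of groups. Drd4 exceeded Thy1 2.40-fold (limma adjusted p = 0.00124), and Hb9 differed from Drd4 by -0.82 ± 0.16 (adjusted p = 0.0128). The latter was -0.71 without Hb9 replicate 2 and did not pass (adjusted p = 0.115).

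Pcdh10, a delta-2 gene known for the growth of striatal axons, was higher than Thy1 in both lines. The leading probe set (1438134_at) read 9.14 and 9.46 in Hb9, 9.89 and 9.63 in Drd4, and 8.44 and 8.59 in Thy1, and the groups did not overlap. The excess over Thy1 was 1.24 ± 0.17 in Drd4, 2.36-fold (limma adjusted p = 0.00159), and 0.78 ± 0.17 in Hb9, 1.72-fold (adjusted p = 0.0231). Hb9 differed from Drd4 by -0.46 ± 0.17 (adjusted p = 0.152). The Drd4 call held under all 16 alternatives. The Hb9 difference missed the threshold when Hb9 replicate 1 (adjusted p = 0.0603), Hb9 replicate 2 (a difference of 0.62, 0.159) or Thy1 replicate 1 (0.145) was left out, and with the mean of all probe sets (a difference of 0.48, adjusted p = 0.100).

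All 6 probe sets of Pcdh10 had their lowest mean in Thy1 and their highest in Drd4. Without Hb9 replicate 2, Hb9 was below Thy1 in 1444301_at (-0.16) and 1442565_at (-0.18). In these dim probe sets Hb9 replicate 1 read 5.275 and 5.02, below its reference of 5.38. Of the 6 probe sets, 3 passed in Hb9 against Thy1, where the 6 differences ran from 0.04 to 1.04. The same number passed in Drd4 against Thy1, where they ran from 0.38 to 1.82. The largest was 3.52-fold in 1430667_at. Between the lines, 1425563_s_at alone passed, with a difference of -0.67 ± 0.17 for Hb9 against Drd4 (limma adjusted p = 0.0429). Without Hb9 replicate 2 the 3 passing differences from Thy1 were 0.62 to 0.73 and missed the threshold (adjusted p = 0.140 to 0.181). Between the lines 1425563_s_at then missed it (-0.79, adjusted p = 0.0972) and 1430667_at passed (-1.09, adjusted p = 0.0299). The suffix of 1425563_s_at marks probes that may match more than 1 transcript.

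Pcdh8, also called arcadlin, is a delta-2 gene known from activity-dependent removal of N-cadherin at synapses. It read 10.41 and 10.44 in Hb9, 9.98 and 10.09 in Drd4, and 9.62 and 9.85 in Thy1 with 1447825_x_at, a probe set whose suffix marks probes that may match other sequences. Hb9 was highest and Thy1 lowest on every array. Hb9 exceeded Thy1 by 0.69 ± 0.13, 1.62-fold (limma adjusted p = 0.0156). The differences of 0.30 ± 0.13 for Drd4 against Thy1 and 0.39 ± 0.13 for Hb9 against Drd4 did not pass (adjusted p = 0.349 and 0.130). The other probe set, 1417051_at, read 10.50 and 10.43 in Hb9, 10.001 and 10.09 in Drd4, and 9.50 and 9.76 in Thy1, and its Hb9 excess over Thy1 was 1.78-fold (adjusted p = 0.00663), or 1.83-fold without Hb9 replicate 2 (adjusted p = 0.0459). In the leading probe set the call needed Hb9 replicate 1 (adjusted p = 0.112 when left out), Hb9 replicate 2 (0.0988) and Thy1 replicate 1 (0.104), while the difference stayed between 0.58 and 0.80 when any array was left out.

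Pcdh18, a delta-2 gene whose protein binds the adaptor Dab1, did not pass in any comparison. With 1422889_at it read 8.78 and 9.20 in Hb9, 8.66 and 8.71 in Drd4, and 9.21 and 8.97 in Thy1. The Drd4 arrays were the lowest, with a difference of -0.41 ± 0.18 from Thy1 (limma adjusted p = 0.320). In the dimmer 1422890_at, Drd4 averaged below the reference and was at least 1.21-fold below Thy1, which did not pass (adjusted p = 0.0893). The remaining probe set, 1430427_a_at, was below the reference on all arrays.

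Pcdh20, the member outside both subgroups, lay close to the background reference. Its leading probe set (1424701_at) read 5.20 and 5.58 in Hb9, 5.31 and 5.35 in Drd4, and 6.22 and 6.07 in Thy1. Both lines lay below Thy1 on every array, and 1 of 2 Hb9 arrays exceeded its reference. The difference from Thy1 was -0.75 ± 0.16 in Hb9 and -0.81 ± 0.16 in Drd4 (limma adjusted p = 0.0209 and 0.0121). With Hb9 replicate 1 left out the Hb9 difference did not pass (adjusted p = 0.183), and with Hb9 replicate 2 left out it was -0.94 and passed (0.0269). Without Thy1 replicate 1 neither call passed (0.153 and 0.0927), and the Drd4 call was also lost with the mean of both probe sets (-0.45, adjusted p = 0.0529). The other probe set, 1451454_at, was below the reference on all arrays.

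**Figure D2:**
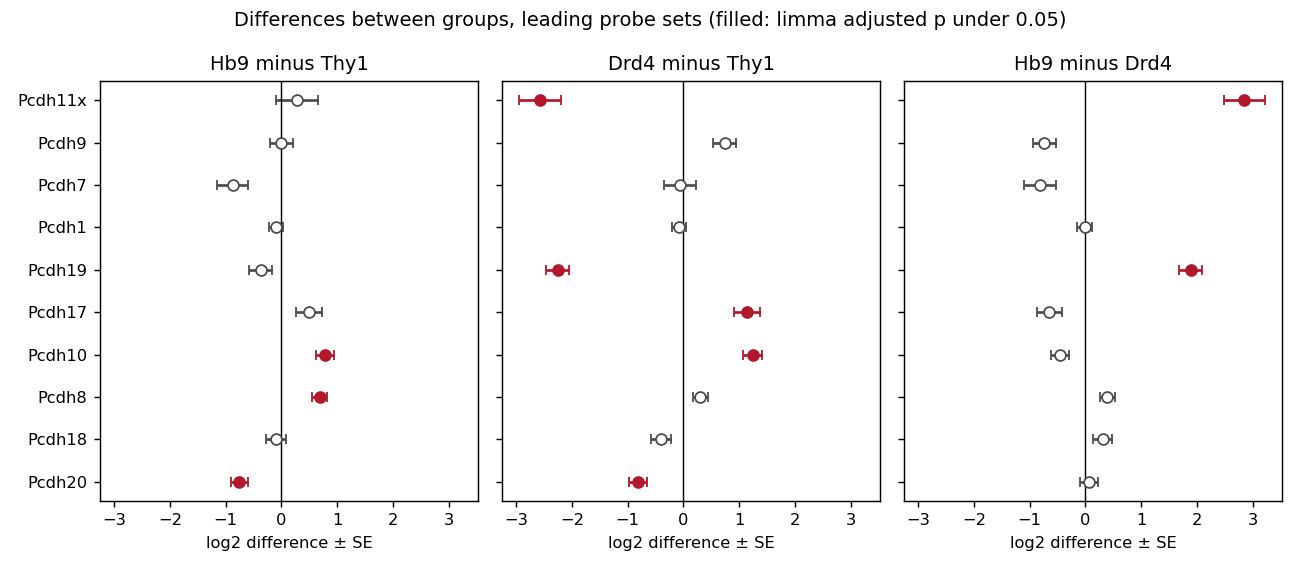
The log2 difference of the leading probe set (x axis, with its standard error as a bar) is plotted for each gene in the 3 comparisons, and filled red points passed limma's test. Pcdh11x and Pcdh19 lie farthest from 0 in both comparisons that involve Drd4, at -2.57 and -2.26 against Thy1.

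Over all 27 probe sets, 5 were higher and 3 lower in Hb9 against Thy1, 6 higher and 6 lower in Drd4 against Thy1, and 4 higher and 3 lower in Hb9 against Drd4. Among the 45037 probe sets tested, 6.03%, 3.77% and 6.49% passed in either direction. Probe sets of 1 gene share its transcripts and are not independent of each other. The genes whose other probe sets passed where the leading one did not were Pcdh9 for Drd4 against Thy1 and Hb9 against Drd4, Pcdh10 and Pcdh17 for Hb9 against Drd4, and Pcdh19 for Hb9 against Thy1.

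**Figure D3:**
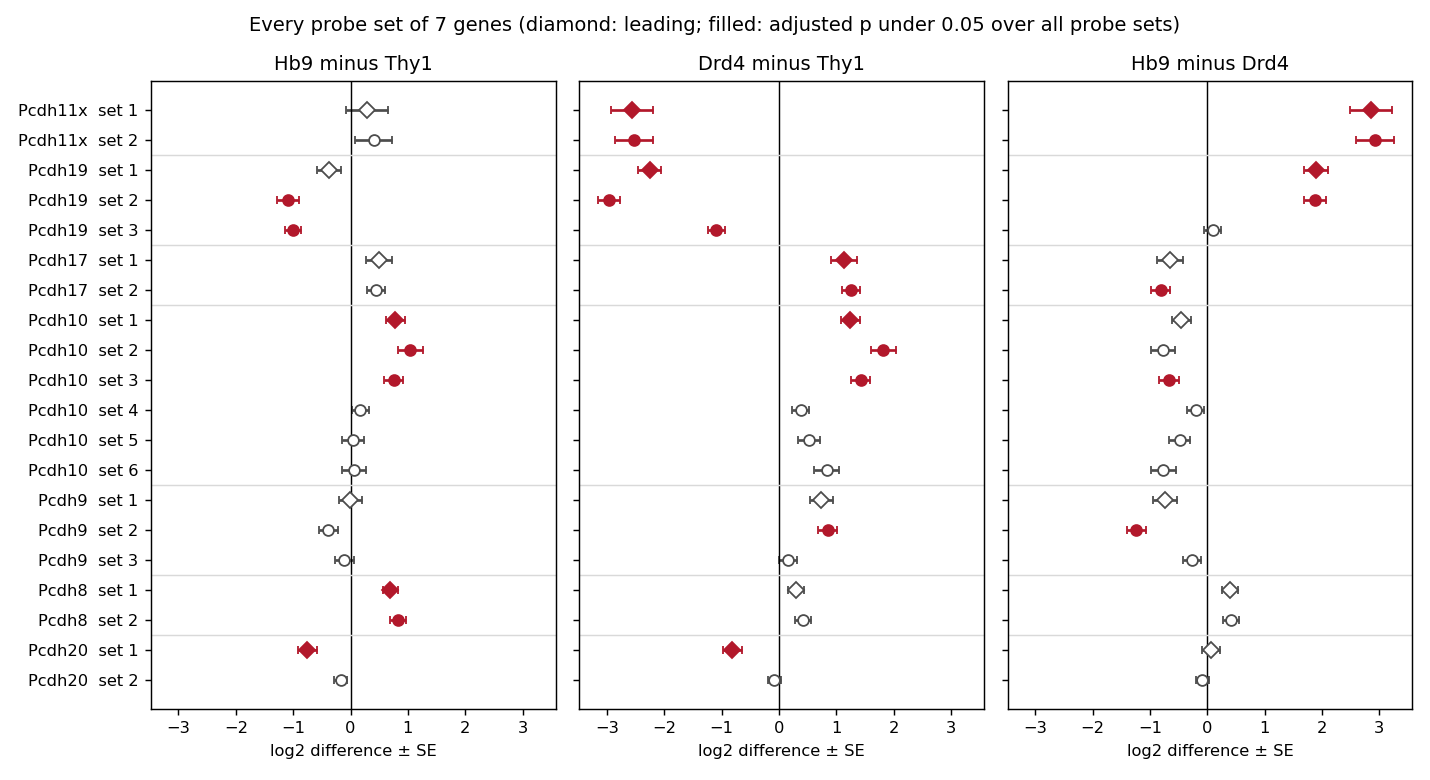
The log2 difference (x axis, with its standard error as a bar) of every probe set of 7 genes is shown in the 3 comparisons, with diamonds for leading probe sets and filled points where the adjusted p over all probe sets was under 0.05. The 2 Pcdh11x probe sets lie together in each panel, while the third Pcdh19 probe set lies at 0.09 in Hb9 minus Drd4 and the other 2 near 1.89.

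Of 10 differences that passed, 4 also passed under every alternative, namely Pcdh10 and Pcdh19 in Drd4 against Thy1 and Pcdh11x and Pcdh19 in Hb9 against Drd4. None of the 10 changed sign.

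**Figure D4:**
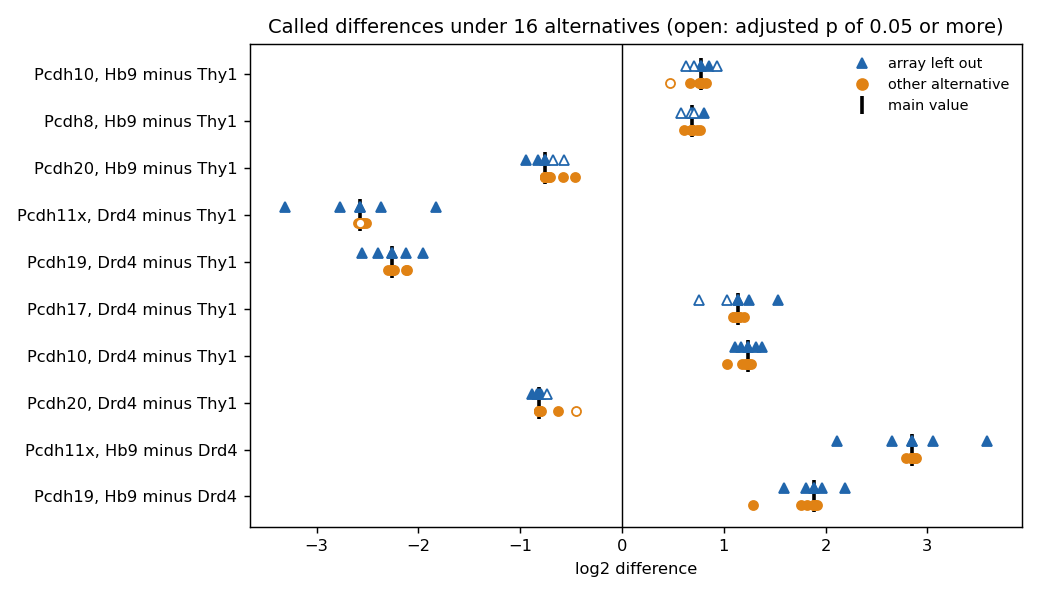
Each line is a difference that passed the test, with a vertical black bar for its value, triangles for the values when 1 array was left out and circles for the other alternatives. Open symbols missed the adjusted p of 0.05, and they appear for the calls in Hb9 minus Thy1 and for Pcdh11x, Pcdh17 and Pcdh20 in Drd4 minus Thy1.

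Some members have few protein-coding genes between them, a count that gives no distance in bases. In the RefSeq gene order, Pcdh8 and Pcdh17 have 1 protein-coding gene between them (Olfm4), Pcdh17 and Pcdh20 have 2 (Diaph3 and Tdrd3), and Pcdh20 and Pcdh9 have none. Along this row, Pcdh17 was higher and Pcdh20 was lower in Drd4 than in Thy1. Pcdh10 and Pcdh18 have 1 gene between them (Pabpc4l), and Pcdh10 was higher in Drd4 than in Thy1 while Pcdh18 was at -0.41 ± 0.18. On the X chromosome, Pcdh11x and Pcdh19 have 13 between them and were both lower in Drd4.

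The genes with the most similar profiles were found as the root mean square distance between log2 profiles over the 6 arrays, each centred on its own mean. For Pcdh19 they were Jam2, a junctional adhesion molecule, at a distance of 0.112, and Cntnap5a, of the contactin-associated family, at 0.167. For Pcdh11x they were Sorcs1, a sorting receptor, at 0.372 and Bcl11a, a transcription factor, at 0.381. For Pcdh10 they were Ryr2, a calcium release channel, at 0.0752 and Satb1, a chromatin organiser, at 0.109. Satb1 averaged 11.09 in Hb9, 11.37 in Drd4 and 10.23 in Thy1.

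The profiles most like that of Pcdh8 were Zfp467, a zinc finger gene, at 0.0174 and Mtmr7, a myotubularin-related gene, at 0.0355. Those for Pcdh17 were Trhde, an enzyme that degrades thyrotropin-releasing hormone, at 0.167 and Tshz1, a zinc finger gene, at 0.181. Those for Pcdh20 were Klf2, a transcription factor, at 0.0754 and Arhgap31 at 0.0808. With 6 arrays in 3 groups these distances describe the profiles, and they carry no test.

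Of 9 measured WAVE complex and actin partners, 1 was lower in Hb9 and 1 in Drd4, both times Wasf2, a WAVE subunit, and the other 8 did not pass. Among all genes, 3.19% were lower in Hb9 and 3.96% in Drd4 than in Thy1. Wasf2 read 8.04 and 8.09 in Hb9, 8.40 and 8.14 in Drd4, and 9.31 and 9.02 in Thy1. It was 2.14-fold lower in Hb9 and 1.86-fold lower in Drd4 than in Thy1 (limma adjusted p = 0.00531 and 0.0101), in the groups where microglial and pericyte markers were also lower, whose part was not tested. It was 2.18-fold lower in Hb9 when Hb9 replicate 2 was left out (adjusted p = 0.0330). The list's median difference was -0.13 in Hb9 and -0.04 in Drd4 against Thy1.

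Of 11 measured signalling partners, 1 (Cdh11) was lower in Hb9 than in Thy1. Higher in Drd4 than in Thy1 were 2 (Cdh11 and Dab1), and the same 2 were lower in Hb9 than in Drd4. Among all genes, 3.19%, 1.51% and 2.06% were called in these directions. Cdh11, a type II cadherin, read 7.81 and 7.79 in Hb9, 10.61 and 10.13 in Drd4, and 8.98 and 9.12 in Thy1. It was 2.37-fold lower in Hb9 and 2.50-fold higher in Drd4 than in Thy1 (limma adjusted p = 0.00386 and 0.00157), and Hb9 lay 5.92-fold below Drd4 (adjusted p = 3.47e-05). Dab1, the adaptor of reelin signalling, read 8.10 and 8.01 in Hb9, 10.07 and 9.66 in Drd4, and 8.41 and 8.11 in Thy1. It was 3.03-fold higher in Drd4 than in Thy1 (adjusted p = 0.000588) and 3.49-fold lower in Hb9 than in Drd4 (adjusted p = 0.000345). Without Hb9 replicate 2, Cdh11 in Hb9 was 2.35-fold below Thy1 and 5.87-fold below Drd4 (adjusted p = 0.0257 and 0.000295), and Dab1 was 3.39-fold below Drd4 (adjusted p = 0.00334). Both genes were thus highest in the group where Pcdh11x and Pcdh19 were lowest. The list's median difference was -0.20 in Hb9 and -0.04 in Drd4 against Thy1 and 0.05 in Hb9 against Drd4.

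The clustered protocadherins, whose isoforms give neurons combinations of surface identity, were measured with Pcdh12 and Pcdh15 in a list of 25 genes, mostly of the beta cluster. Of these, 5 were below the reference on all arrays. In Hb9 against Thy1, 4 were higher, where 3.52% of all genes were higher. The largest differences were 1.89-fold for Pcdhb9, 1.80-fold for Pcdhb19 and 1.64-fold for Pcdhb3 (limma adjusted p = 0.00518, 0.0455 and 0.0222). Pcdhb9 read 9.68 and 9.79 in Hb9, 9.44 and 9.41 in Drd4, and 8.76 and 8.88 in Thy1, and it was also 1.52-fold higher in Drd4 (adjusted p = 0.0302). It was the 1 gene of the list that passed there, where 1.51% of all genes were higher. None passed in Hb9 against Drd4. All 4 Hb9 calls were lost without Hb9 replicate 2, with Pcdhb9 at 1.82-fold, Pcdhb19 at 1.44-fold and Pcdhb3 at 1.54-fold (adjusted p = 0.0518, 0.236 and 0.150). The list's median difference was 0.07, 0.08 and 0.03 in the 3 comparisons. These genes are near copies of each other, and probes of one may bind transcripts of another.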

How the data were processed

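Gene expression was measured on 6 Affymetrix arrays. The values deposited by the authors are linear probe set intensities, and the sources used here name no software, background correction or normalisation behind them. Log2 was taken with no further scaling or filter. Each of the 18193 genes was represented by the probe set with the highest mean over the 6 arrays. Group means were fitted with limma 3.58.1 in R 4.3.3 over all 6 arrays, with an intensity trend, 3 residual and 6.98 prior degrees of freedom. Tests were two-sided, with Benjamini-Hochberg adjustment over the 18193 genes, or over 45037 probe sets, at 0.05. The script was tested on simulated data. Precision is limited by the number of arrays: the standard error of a difference had a median of 0.15.

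All members are named. From each list, the counts and up to 3 called genes with the largest differences are given, and for each called member the 2 genes with the most similar profiles. Members and lists were chosen with earlier results of these data known. The alternatives cover the scaling, an offset, a dim-probe filter, the probe set rule, the fit, and leaving out each array. Promoters came from RefSeq (GRCm38.p6), which was also used for gene order.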

Additional observations from a re-analysis of the deposited data

How the results depend on the processing

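None of the 10 differences that passed changed sign under the 16 alternatives, and 4 passed in all of them. Of the 20 that did not pass, 7 passed under some alternative. With the mean of all probe sets, 1 gene was higher and 2 were lower in Hb9 against Thy1, and 2 were lower in Hb9 against Drd4. With only the compared groups in the fit, 2 were lower in Hb9 against Thy1 and 2 in Hb9 against Drd4. Leaving out 1 array at a time gave 0 to 2 higher and 0 to 2 lower in Hb9 against Thy1, 1 to 3 higher and 2 to 3 lower in Drd4 against Thy1, and 2 higher and 0 to 2 lower in Hb9 against Drd4; a lone array is then assumed to vary like the other groups. Over all genes the calls numbered 315 to 1633, 666 to 922 and 411 to 1244. With the replicate number as a block, 1 gene was lower in Hb9 against Drd4 and 3 were higher in Drd4 against Thy1, and all-gene calls numbered 1156, 985 and 1030; the calls gained were those of Pcdh9 (adjusted p = 0.0405 and 0.0416). Same-numbered arrays deviated together at -0.28 (Hb9 and Drd4), -0.19 (Hb9 and Thy1) and 0.37 (Drd4 and Thy1), and nothing in the labels ties a number to a shared litter or day, so the numbers were not treated as pairs. The cause of these changes was not tested. Pcdh1, Pcdh20 and the third Pcdh19 probe set lie near or below the background reference, which limits their differences. The same holds for 1444301_at and 1442565_at of Pcdh10 in Hb9, 1458269_at of Pcdh9, and the dimmer probe sets of Pcdh7 and Pcdh18.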
